A study of Schizosaccharomyces pombe with 2 samples.

Results

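BrdU incorporation was examined at a pair of known replication origins of the fission yeast Schizosaccharomyces pombe, one beside hus5 on chromosome I and one beside ura4 on chromosome III. The members were the tiles of a microarray whose names place them at 1080000 to 1112000 on chromosome I (107 tiles, 32.1 kb) and at 115000 to 135000 on chromosome III (67 tiles, 20.1 kb). These are 174 of 41240 usable chromosome tiles, spaced 300 bp apart. Positions are those of the tile names, whose genome build the sources used here do not give. In that numbering hus5 lies at 1095300 to 1096499 with ars1 next to it, and ura4 lies at 115500 to 116699 near the ars3002 cluster.

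There were 2 arrays, 1 for a strain called wild-type (cdc10-v50) and 1 for cdc10-v50 sap1-1, both in the 972h background. Per the labels, the cells carried Pnmt1-TK, a thymidine kinase module, and Padh1-hENT, a nucleoside transporter module, which together let yeast take up and use BrdU, a thymidine analogue. Cultures were arrested at 35 °C for 4 h and released at 26 °C into 10 mM hydroxyurea and 200 µM BrdU, then fixed with 0.1% sodium azide. The Cy5 channel held DNA pulled down with an antibody to BrdU. The Cy3 channel held DNA of the whole-cell extract, called the input. Cdc10 belongs to the factor that switches on G1/S transcription, and the wild-type strain thus carried a cdc10 allele too. Sap1 is an essential DNA-binding protein.

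Origins of fission yeast have no short consensus sequence. The origin recognition complex binds stretches rich in A and T through AT-hooks of its Orc4 subunit, and such stretches lie mostly between genes. Fragments that replicate a plasmid by themselves are called ars elements, and ars1 and ars3002 are classical examples. Hydroxyurea starves cells of deoxynucleotides, so forks travel only a short way and BrdU stays close to origins that fired early. A ratio measured over a culture does not tell the share of cells in which an origin fired.

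Values are log2 ratios of immunoprecipitated over input signal, with the median of each array set to 0. A tile counts as enriched at 1 or more, which is 2-fold above that median. Each strain had 1 array, so no test between strains was possible, an SD is the scatter of tiles within an array, and the strain cannot be told apart from its 1 culture, pull-down and hybridisation. Differences between neighbouring tiles had an SD of 0.60 in wild-type and 1.02 in sap1-1 over the genome. In the hus5 window they were 0.55 and 0.83, and in the ura4 window 0.56 and 1.07. Neighbouring tiles thus differed more in sap1-1, and whether this is measurement scatter was not tested.

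Both windows held more enriched tiles than the genome. In the hus5 window 57 of 107 tiles (53.3%) were enriched in wild-type and 54 (50.5%) in sap1-1, against 24.6% and 23.1% of all tiles. In the ura4 window the counts were 29 of 67 (43.3%) and 24 (35.8%). Tiles enriched in both strains made up 44.9% of the hus5 window and 29.9% of the ura4 window, against 16.8% of all tiles. Around hus5 the median tile read 1.10 for wild-type and 1.002 for sap1-1, and around ura4 0.80 and 0.41.

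The BrdU around hus5 was not 1 peak but a series of peaks on the left of the gene and mostly lower values on its right. Averaged over tiles within 500 bp either side, the wild-type profile had 6 local maxima of 1 or more in this window. The sap1-1 profile also had 6, and 5 of them lay within 600 bp of a wild-type one. The other sap1-1 maximum lay on the right, at 1102200 in rad52, with a smoothed ratio of 1.02 where wild-type had 0.61. The ura4 window had 3 such maxima in wild-type and 4 in sap1-1, of which 2 in each strain matched within 600 bp. The share of matched maxima over the genome was not computed. In wild-type, left of the middle of hus5, 46 of 53 tiles were enriched, with a mean of 1.84 ± 0.72 (SD over tiles). Right of it 11 of 54 were enriched, with a mean of 0.31 ± 0.79. In sap1-1 these means were 1.69 ± 0.90 and 0.36 ± 1.02, with 40 and 14 enriched tiles.

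**Figure D1:**
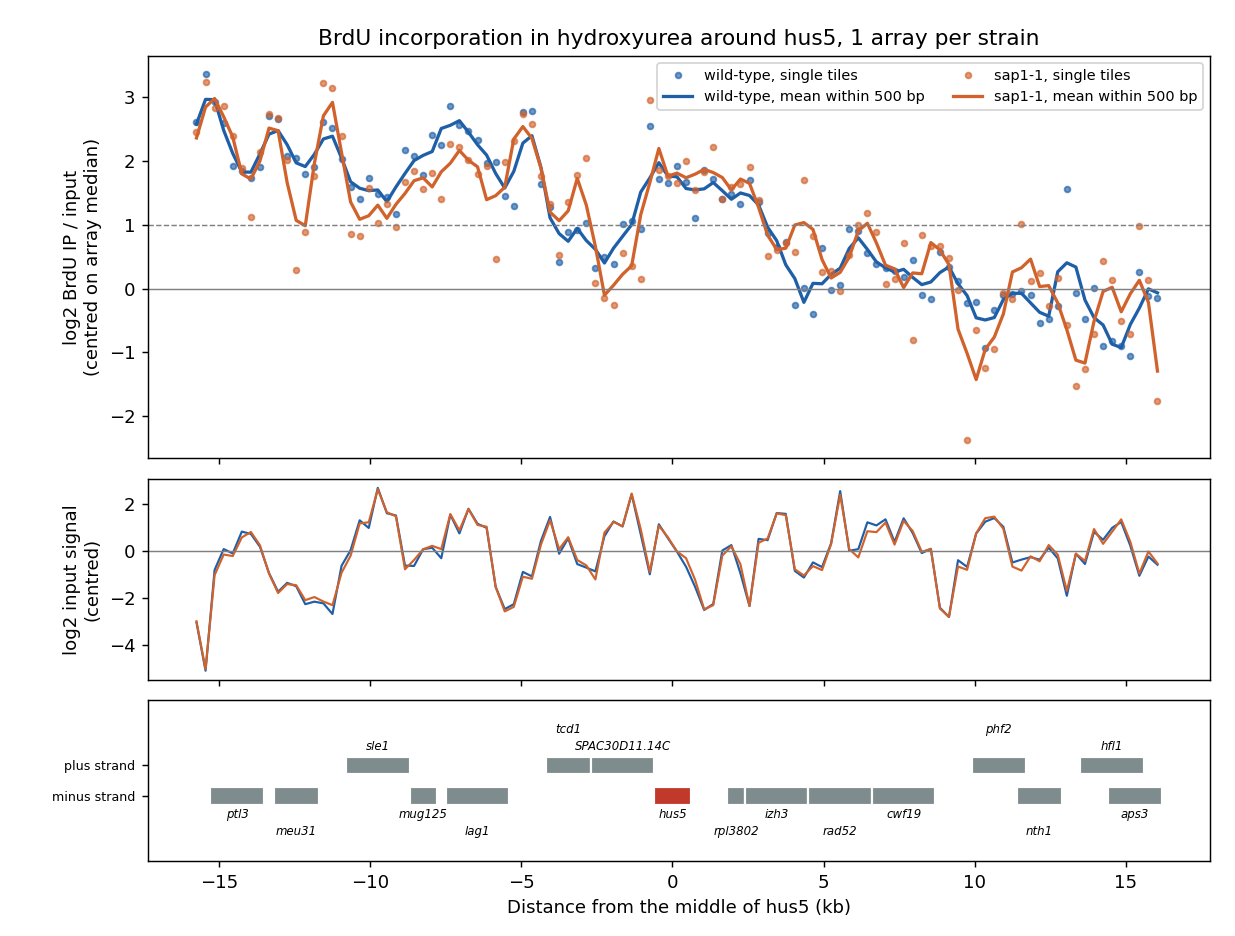
Log2 ratio of BrdU immunoprecipitate over input (upper panel), log2 input signal (middle panel) and protein-coding genes (lower panel, hus5 in red), by distance from the middle of hus5 in kb, with 1 array per strain. Points are single tiles, lines are means of tiles within 500 bp, and the dashed line marks a ratio of 1. The profile is high on the left, has a peak of 1.98 in wild-type and 2.20 in sap1-1 at hus5, and falls below 0 at the right end in both strains.

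The gene hus5, which encodes the SUMO-conjugating enzyme Ubc9 and is read on the minus strand, sat at 1 of the local maxima. Its 4 tiles read 1.72, 1.65, 1.93 and 1.68 in wild-type. In sap1-1 they read 1.86, 1.77, 1.66 and 2.0. The values of the strains overlapped. Among the protein-coding genes of both windows with at least 3 tiles, hus5 had the smallest SD over tiles in either strain (0.13 and 0.14). The tile at 1095000, at the 3′ end of hus5 where it meets the convergent gene SPAC30D11.14C, was higher still, at 2.55 (wild-type) and 2.97 (sap1-1). On the other side, the 4 intergenic tiles at 1096500 to 1097699 between hus5 and rpl3802, a gene of ribosomal protein L38, had means of 1.52 ± 0.34 and 1.75 ± 0.36. BrdU thus covered hus5, the single tile 1095000 on its left and the intergenic tiles on its right in both strains. Farther left, the tiles 1094700, 1094400 and 1094100 read 0.93, 1.06 and 1.02 in wild-type. In sap1-1 they read 0.15, 0.36 and 0.56.

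The enriched region that held hus5 (3 or more consecutive tiles whose smoothed ratio reached 1, joined across gaps under 1000 bp) ran from 1094400 to 1098899 in wild-type. In sap1-1 it ran from 1094700 to 1098899. Its length was 4.5 kb and 4.2 kb. Its peak lay at the tile 1095300 in both strains, where smoothing gave 1.98 for wild-type and 2.20 for sap1-1. Ordered by height it was number 218 among the 472 regions of wild-type and number 217 among the 681 of sap1-1. The median heights were 1.90 and 1.88. The region at this origin was thus near the middle of the order in wild-type. In sap1-1 it had almost the same rank among a larger number of regions. It was longer than the median lengths of 2.7 kb and 1.8 kb.

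A valley separated hus5 from a larger domain on its left. In the valley the tiles 1093200, 1093500 and 1093800 read 0.32, 0.50 and 0.38 in wild-type. In sap1-1 they read 0.09, -0.15 and -0.25. The domain beyond it ran from 1073100 to 1091999 in wild-type and from 1074300 to 1093199 in sap1-1, 18.9 kb in either strain, and so reached past the left border of the window. It ranked 30 by length among the 472 regions of wild-type and 9 among the 681 of sap1-1, whose median length was shorter. The equal length held under some settings only. It was 27.0 kb for wild-type and 8.7 kb for sap1-1 with centring on the mode. With normexp it was 18.3 and 8.1 kb, and at a threshold of 1.5 it was 14.4 and 7.8 kb. With loess it was 7.8 kb for both. The domain was 18.9 kb for both with the mean input of both arrays, and 18.6 and 18.9 kb with quantile scaling. Its summit inside the window lay at 1080300 in wild-type (smoothed ratio 2.97) and at 1080600 in sap1-1 (2.98), far to the left of hus5. In wild-type that was also the peak of the whole domain, at rank 51 of 472, whereas the sap1-1 domain peaked at 1077900, outside the window, at 3.02 and rank 49 of 681.

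The maxima of this domain fell in and between genes. The summit at 1080300 was an intergenic tile beside ptl3, a triacylglycerol lipase gene, and read 3.36 in wild-type and 3.25 in sap1-1. Its input was low, at -5.11 (wild-type) and -5.04 (sap1-1), with Cy3 signals of 30.6 and 27.7. Its Cy5 signals of 279 and 257 were below the array medians too. An alternative added after seeing the data left out tiles with input at least 2 below the median in both strains. The highest smoothed ratio of the window was then 2.78 at 1090800 (wild-type) and 2.85 at 1080600 (sap1-1). The intergenic tiles at 1084200 to 1085099 between meu31 and sle1, an eisosome gene, had means of 2.39 ± 0.32 and 2.92 ± 0.45 (SD over 3 tiles). Their mean input was -1.85 for wild-type and -1.80 for sap1-1. In the 4 intergenic tiles between lag1 and tcd1 the means were 2.12 ± 0.77 and 2.35 ± 0.43. By contrast, the maximum at 1088700 lay inside lag1, a ceramide synthase gene, where the input was 0.75 above the array median in wild-type and 0.89 above in sap1-1. The smoothed ratio there was 2.64 for wild-type and 2.17 for sap1-1.

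To the right of hus5 the ratio declined over the next genes. The 13 tiles from 0 to 4 kb averaged 1.37 ± 0.42 in wild-type and 1.47 ± 0.54 in sap1-1. The next 14 tiles, to 8 kb, averaged 0.29 ± 0.39 and 0.52 ± 0.61. From 8 to 12 kb the means were -0.097 ± 0.350 and -0.13 ± 0.97. The izh3 gene had means of 0.72 and 1.06, the recombination gene rad52 of 0.38 and 0.58, and the splicing gene cwf19 of 0.19 and 0.36. Farther out, phf2, nth1 (a base-excision repair endonuclease), hfl1 and aps3 had wild-type means of -0.56 to -0.28 and sap1-1 means of -0.35 to 0.26. The decline took the profile from enriched to the array median within 8 to 12 kb in both strains.

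Of the 16 protein-coding genes of the hus5 window, 7 had a mean of 1 or more in wild-type and 9 in sap1-1. Of all 5100 protein-coding genes with a tile, 20.2% and 15.2% did. The highest mean in wild-type was that of lag1, at 2.24 ± 0.47 over 7 tiles, with 1.81 ± 0.62 in sap1-1. The highest in sap1-1 was that of ptl3, at 2.21 ± 0.65 over 6 tiles, with 2.16 ± 0.49 in wild-type. Both lie in the left domain. The mean of hus5 came below those of ptl3, lag1, meu31 and mug125 in wild-type, and below that of ptl3 alone in sap1-1.

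**Figure D2:**
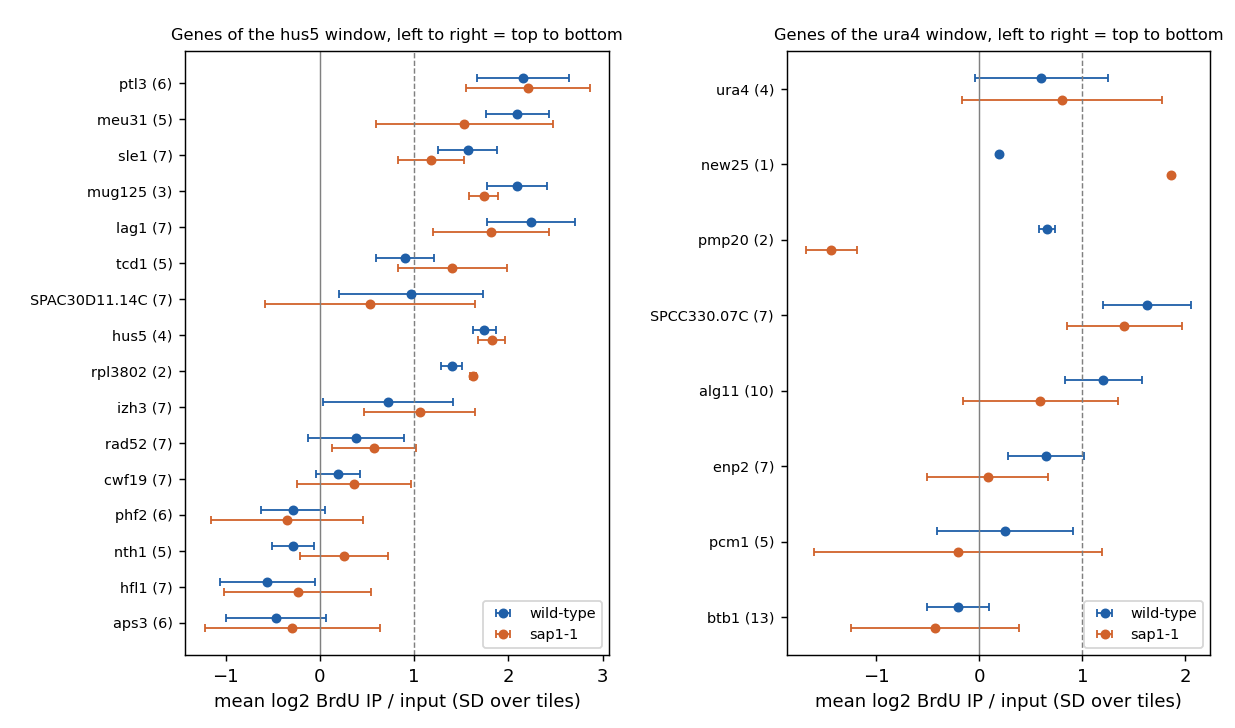
Mean log2 ratio of each protein-coding gene of the hus5 window (left) and the ura4 window (right) in wild-type and sap1-1, with bars for the SD over tiles and the number of tiles in parentheses. Genes run from the left end of the window at the top to its right end at the bottom, and the dashed line marks a ratio of 1. The strains lie side by side at most genes, while pmp20 stands at 0.66 in wild-type and -1.44 in sap1-1. The other way round, new25, with 1 tile, stands at 0.19 in wild-type and 1.86 in sap1-1.

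The gene ura4 encodes orotidine 5′-phosphate decarboxylase. Around it the highest wild-type values lay away from the gene, in a pair of intergenic stretches and the gene between them. The highest sap1-1 values lay there too, but the tile 117300 between ura4 and new25 read 2.22 and a ura4 tile 2.14 in sap1-1. The 4 ura4 tiles read 1.57, 0.24, 0.28 and 0.32 in wild-type. In sap1-1 they read 2.14, -0.06, 0.27 and 0.88. A single tile at the 3′ end of the gene, which is read on the minus strand, was high in both strains, and the rest stayed below 1. Averaged over the gene, wild-type stood at 0.60 ± 0.65 and sap1-1 at 0.80 ± 0.97, and ura4 lay in no enriched region of either strain. The strains' labels do not name a ura4 allele. The input at its 4 tiles was -0.11, 0.57, 0.58 and -1.58 in wild-type. It was -0.60, 0.56, 0.51 and -1.47 in sap1-1, so the sequence was present in both inputs.

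The window held 3 tiles left of the middle of ura4 and 64 right of it, so it shows almost only the right side. The highest smoothed ratio of the window lay at the tile 123000 in both strains, at 2.73 in wild-type and 3.19 in sap1-1. Ordered by height, this region was number 83 of 472 for wild-type and number 31 of 681 for sap1-1. The enriched region ran from 119100 to 127499 (8.4 kb) in wild-type and from 119400 to 124799 (5.4 kb) in sap1-1. Both regions reached into alg11, and the wild-type one ran through it to the first tile of enp2.

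The summit lay in the intergenic stretch of 122700 to 124199 between SPCC330.07C and alg11, a mannosyltransferase gene of N-glycan assembly. These genes are divergent. The 5 tiles of the stretch read 3.04, 3.35, 1.79, 2.09 and 2.29 in wild-type. In sap1-1 they read 3.49, 3.80, 2.28, 1.88 and 1.94. All 5 were thus far above the array median in both strains, and neither strain was higher throughout. Input was low there, at means of -3.71 in wild-type and -3.56 in sap1-1, and at the tile 123000 it was -5.61 and -5.47.

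That tile rested on Cy3 signals of 21.6 in wild-type and 20.6 in sap1-1, where the array medians were 1054 and 912. Its Cy5 signals of 195 and 281 were below the array medians of 913 and 871 as well. All of the tiles in both windows were well above background in both channels. Without the tiles whose input lay at least 2 below the median in both strains, an alternative added after seeing the data, the highest smoothed ratio left in the ura4 window was 1.82 at 120000 for wild-type and 1.83 at 119700 for sap1-1. All 5 tiles of the stretch between SPCC330.07C and alg11 are among those left out. The part of the low input in the summit height was not tested further.

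A second rise lay between pmp20, a peroxiredoxin gene, and SPCC330.07C. The 6 tiles from 118800 to 120599 had a mean of 1.47 ± 0.49 in wild-type and 0.96 ± 1.32 in sap1-1. The local maximum was at 120300 in wild-type (smoothed ratio 2.08) and at 119700 in sap1-1 (1.83). SPCC330.07C itself, between these 2 stretches, averaged 1.63 ± 0.43 and 1.41 ± 0.56 over 7 tiles. The gap between ura4 and new25 had lower values, with means of 0.92 ± 0.24 and 0.83 ± 1.22 over 3 tiles. Among these 3 stretches the one farthest from ura4 had the highest mean in both strains, and the nearer 2 overlapped in their tile values. The single tile between new25 and pmp20 read 0.72 in wild-type and 1.41 in sap1-1.

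**Figure D3:**
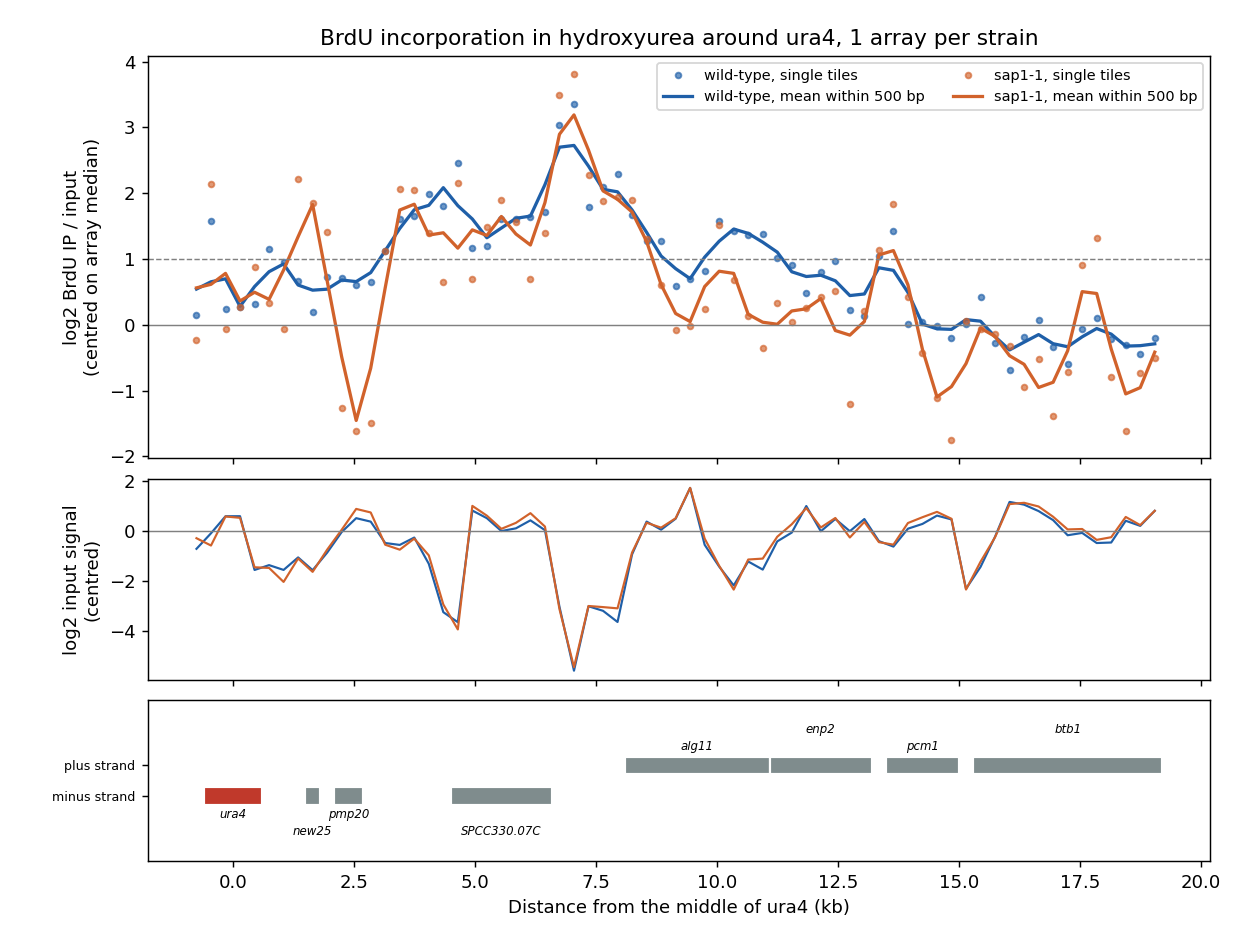
Log2 ratio of BrdU immunoprecipitate over input (upper panel), log2 input signal (middle panel) and protein-coding genes (lower panel, ura4 in red), by distance from the middle of ura4 in kb, with 1 array per strain. Points are single tiles, lines are means of tiles within 500 bp, and the dashed line marks a ratio of 1. The summit of 2.73 in wild-type and 3.19 in sap1-1 lies 7.05 kb to the right of ura4 at the deepest dip of the input, and sap1-1 drops at pmp20.

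Beyond the summit the gene means declined through alg11, enp2, pcm1 and btb1. In wild-type these genes had means of 1.21 ± 0.37, 0.65 ± 0.37, 0.25 ± 0.66 and -0.21 ± 0.30. In sap1-1 the means were 0.59 ± 0.75, 0.082 ± 0.587, -0.21 ± 1.40 and -0.43 ± 0.82. The order of the genes was the same in both strains, and all 4 had the lower mean in sap1-1. Within these genes the smoothed ratio did not fall steadily. Wild-type had a local maximum of 1.45 at 126300 in alg11, where sap1-1 stood at 0.78. In sap1-1 a local maximum of 1.13 lay at 129600 in pcm1, where wild-type stood at 0.83. The enp2 gene serves ribosome biogenesis, pcm1 encodes an mRNA cap methyltransferase and btb1 a BTB-domain protein.

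Tile by tile, sap1-1 minus wild-type had a median of -0.032 ± 0.679 (SD over tiles) in the hus5 window and -0.31 ± 0.79 in the ura4 window. Over all tiles the median was -0.12 ± 0.96. In the hus5 window 55 of 107 tiles (51.4%) were lower in sap1-1. In the ura4 window 43 of 67 (64.2%) were, against 55.8% of all tiles. Both medians were smaller than the scatter of single tiles, and in both windows that scatter was below the one over all tiles.

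Single tiles that differed by at least 1 were few around hus5. There 7 tiles (6.5%) were lower and 6 (5.6%) higher in sap1-1, against 17.1% and 10.3% of all tiles. In the ura4 window 12 tiles (17.9%) were lower and 3 (4.5%) higher. These splits depend on where the arrays are centred. Centred on the mode of each array in place of the median, they were 23 lower and 1 higher around hus5, 28 and 2 around ura4, and 14424 and 1481 over all 41240 tiles, where the median centring gave 7067 and 4235. Mode centring moves every difference by 0.54 towards lower in sap1-1. Quantile scaling gave 5402 lower (13.1%) and 5389 higher (13.07%) tiles over the genome, 7 and 7 around hus5, and 10 (14.93%) and 4 (5.97%) around ura4. With within-array loess the split around ura4 was 8 (11.94%) and 4 (5.97%), against 10.07% and 8.94% of all tiles. With the mean input of both arrays it was 9 (13.43%) and 4 (5.97%), against 16.21% and 9.83%.

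The tiles around hus5 that differed by 1 or more were scattered across the window. The lower ones included 1083300 in meu31 (2.05 in wild-type, 0.30 in sap1-1), 1089900 in lag1 (1.99 and 0.46), and 1108800 between nth1 and hfl1 (1.56 and -0.57). Among the higher ones was 1100100 in izh3, at 0.0018 in wild-type and 1.70 in sap1-1. After averaging within 500 bp, 3 tiles were lower and 1 higher around hus5, and 7 and 1 around ura4, against 12.8% and 6.39% of all tiles. The lower ones around ura4 lay at pmp20, at the border of alg11 and enp2, and in pcm1.

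The 1 run of at least 3 neighbouring tiles that differed by 1 or more the same way lay at pmp20. Its tiles at 118200, 118500 and 118800 read 0.71, 0.60 and 0.65 in wild-type. In sap1-1 they read -1.26, -1.61 and -1.50. The sap1-1 values were all below the wild-type ones, with a mean difference of -2.11. Such runs were common, with 748 lower and 433 higher ones on the arrays, which took in 7.3% and 3.9% of all tiles. The mean difference of pmp20 over its 2 tiles stayed between -2.64 and -1.41 under 7 alternatives of the processing. Just left of it, sap1-1 was the higher strain: the tiles at 117300, 117600 and 117900 read 2.22, 1.86 and 1.41 in sap1-1 and 0.67, 0.19 and 0.72 in wild-type. The tile 117600 is the only one of new25, so that gene's difference of 1.67 rests on 1 spot per array. Input differed by at most 0.55 between the strains at any tile of the ura4 window.

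By gene, 6 of the 16 protein-coding genes around hus5 had the lower mean in sap1-1, against 59.5% of all 5100 genes. With centring on the mode it was 15 of 16, against 86.7%. The differences ran from -0.56 at meu31 to 0.54 at nth1. The difference at hus5 was 0.079 ± 0.247 over its tiles and turned to -0.46 with centring on the mode. Around ura4 6 of 8 genes had the lower mean in sap1-1, and 7 of 8 with centring on the mode. Among them were alg11 (-0.61 ± 0.58, lower at 8 of 10 tiles) and enp2 (-0.57 ± 0.49, 6 of 7 tiles). At ura4 itself the difference was 0.20 ± 0.43, and it was -0.34 with centring on the mode. The windows also held 30 annotated non-coding RNA genes, whose means ran from -0.48 to 3.04 in wild-type and from -1.76 to 3.49 in sap1-1.

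Despite the larger steps between sap1-1 tiles, the profiles followed each other. Pearson's r between the strains was 0.82 over the 107 tiles around hus5 and 0.77 over the 67 around ura4, against 0.74 over all tiles. After averaging within 500 bp these were 0.89, 0.84 and 0.80. The tiles of a window are neighbours on the same DNA and share probe sequences between the arrays, so these values are descriptions. The input signal itself correlated at 0.99 between the strains in either window.

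Base composition went along with the ratio. Intergenic tiles around hus5 had a median A and T share of 71.3% with median ratios of 1.73 (wild-type) and 1.83 (sap1-1). Tiles in genes had 62.0% and ratios of 0.92 and 0.87. Around ura4, intergenic tiles had 68.7% and ratios of 1.38 and 1.40, and tiles in genes 61.0% with 0.59 and 0.24. Over all tiles the ratios were 0.77 and 0.70 between genes and -0.18 and -0.19 in genes. The gap between genes and the stretches between them was therefore seen in both windows, in both strains and genome-wide.

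Over the tiles of the hus5 window, the ratio had an r with A and T share of 0.39 in wild-type and in sap1-1. In the ura4 window it was 0.55 and 0.50, and over all tiles 0.33 in both. The ratio also ran against the input, with r of -0.31 and -0.35 around hus5 and -0.64 and -0.61 around ura4. Over all tiles these were -0.17 and -0.15. The input is the denominator of the ratio, so ratio and input are not independent. The cause of the negative r was not tested. Low input, 2 or more below the array median in both strains, was found at 12 tiles (11.2%) around hus5 and 9 (13.4%) around ura4, against 5.29% of all tiles. A correction for GC content was run as an alternative and is given in the last section. The part of base composition in the heights was not separated from that of replication.

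**Figure D4:**
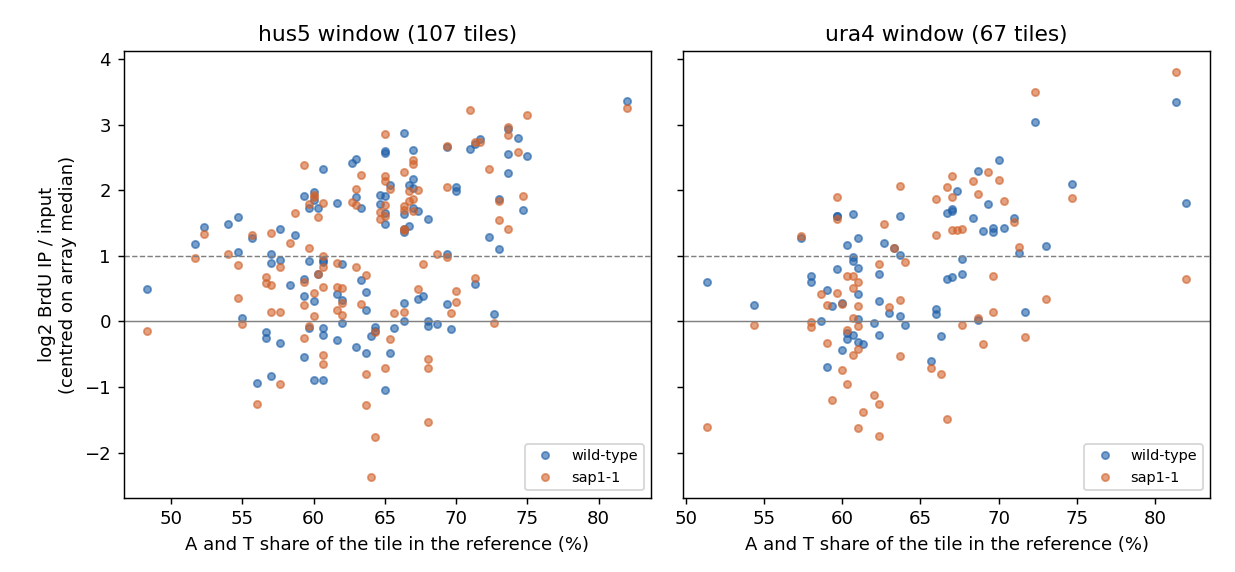
Log2 ratio of BrdU immunoprecipitate over input against the A and T share of each tile in the reference (%), for the 107 tiles of the hus5 window (left) and the 67 tiles of the ura4 window (right), with 1 point per tile and strain. Lines mark ratios of 0 and, dashed, 1. The tile with the highest wild-type ratio has an A and T share of 82.0% in the hus5 window and 81.3% in the ura4 window, and tiles with a like share spread over several units.

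Tiles were also put into 5 classes by A and T share. In all 20 comparisons of a class, window and strain the median of the window was above that of all tiles. The classes are broad, neighbouring tiles are not independent, and the class from 72% up held only 5 tiles around ura4. The margin was small in the class of 60 to 64% around ura4 in sap1-1, at 0.05 against -0.23. The part of base composition was not tested. Among tiles under 60% A and T, those around hus5 had medians of 0.90 for wild-type and 0.64 for sap1-1. Around ura4 they were 0.60 and 0.12, and over all tiles -0.47 and -0.53. A run of AAAAAA on either strand was present in 60.7% of tiles around hus5, 65.7% around ura4 and 55.3% of all tiles. In the hus5 window, wild-type tiles with such a run had a median of 1.48 and those without 0.90. Around ura4 these were 1.03 and 0.48, and over all tiles 0.21 and -0.24. In sap1-1 they were 1.41 and 0.83 around hus5, 0.69 and -0.014 around ura4, and 0.25 and -0.30 over all tiles.

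Outside the windows, the protein-coding genes nearest to hus5 by the distance between their pairs of means were wtf11 (distance 0.011), dus2, a tRNA dihydrouridine synthase gene (0.050), and oxa101 (0.072). Those nearest to ura4 were SPBC24C6.03 (0.013), SPAC926.06C (0.017) and ceo5 (0.026). Likeness rests on only 2 arrays here, and wtf11 belongs to a family of near-identical genes whose tiles may share signal. Among 4619 genes with at least 3 tiles, 93.4% had a lower mean than hus5 in wild-type and 97.2% in sap1-1. For ura4 these shares were 72.01% and 81.9%.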

How the data were processed

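The arrays were read with Agilent Feature Extraction 10.7.3.1. Background was subtracted, with a spatial trend removed, and the dyes were balanced linearly, per the file headers. The deposited processed signals are intensity values, and the deposited log10 ratio equals their Cy5 over Cy3 ratio to within 3.91e-07. Background-corrected alternatives used the deposited median intensity of spot and background. Of 41251 chromosome tiles, 11 with an outlier flag on either array were left out, and no spot was saturated. Ratios were converted to log2 and centred on each array's median, with no loess or quantile step. Depth has no meaning for arrays; their number limits the precision.

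Gene names come from RefSeq ASM294v3, whose numbering differs from the tiles'. Offsets per chromosome arm were found by matching GC content to the input signal: -900 bp for the left arm of chromosome I (r = 0.58) and 50 bp for that of chromosome III (r = 0.55). Blocks of 300 kb gave the same offset to within 100 bp. A gene's tiles are those whose centre it covers. Base composition was read from the reference with these offsets, and no sequence is printed.

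Named genes are all protein-coding genes of the windows and, for hus5 and ura4, the 3 genes with the nearest pair of means. The members, lists and settings were chosen with earlier results of these data known. Alternatives were run with limma 3.58.1 and Python 3.11.15. Region calling and offsets were tested on simulated data.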

Additional observations from a re-analysis of the deposited data

How the results depend on the processing

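No paired analysis was possible because each strain had 1 array. For lack of replicates, a value was taken to move when it left its SD over tiles, and a count or length when it changed by over 1.5 times. By that measure 28 of 144 alternative values of the main results moved. Region lengths are those of the region that held the summit of its window. For the lengths given here, the summit of the hus5 window lay to the left of hus5. With centring on the mode (-0.43 in wild-type, 0.11 in sap1-1) the hus5 window had a summit of 3.40 and a hus5 mean of 2.18 in wild-type, and a region of 8.7 kb in sap1-1. The wild-type region there was 27.0 kb long. Median differences became -0.57 (hus5 window) and -0.85 (ura4 window). Background correction with normexp gave a summit of 3.50 and a region of 8.1 kb left of hus5 in sap1-1. Loess gave regions of 7.8 kb left of hus5 in both strains, a sap1-1 summit of 3.72 there, and hus5 means of 1.25 and 1.29. In the ura4 window in sap1-1, loess gave a summit of 4.42 and a region of 2.4 kb. Correction for GC content gave sap1-1 summits of 2.60 (hus5 window) and 2.27 (ura4 window) and hus5 means of 1.59 and 1.64. Without low-input tiles, added after seeing the data, the ura4 window summits were 1.82 and 1.83. Smoothing over 1000 bp either side gave hus5 window summits of 2.43 and 2.44, and single tiles 3.36 and 3.25. A threshold of 1.5 left 17 wild-type tiles around ura4, with regions there of 4.8 kb (wild-type) and 2.1 kb (sap1-1). It gave a region of 7.8 kb left of hus5 in sap1-1. Tiles with any overlap of hus5 gave means of 1.91 and 2.05. The cause of these moves was not tested. The hus5 window median took either sign: -0.032 as reported, 0.013 with normexp, 0.037 with loess, 0.064 with quantile scaling and 0.017 over 20 kb either side of the gene. The ura4 window median stayed below 0 in all alternatives run. Centring on the mode turned the gene differences of ptl3, tcd1, hus5, rpl3802, izh3, rad52, cwf19, hfl1, aps3 and ura4 from above 0 to below 0; that of hus5 also turned with normexp and that of ptl3 with the mean input. Of the 8 genes around ura4, 2 had a mean of 1 or more in wild-type with median centring, against 20.2% of all genes. The count was 5 with centring on the mode, against 30.3%, and 3 with the GC correction, against 21.5%. In sap1-1 the count was also 2 with median centring, against 15.2% of all genes. It was 3 with normexp, against 16.3%, and 3 with the GC correction, against 15.4%.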
